A study of Arabidopsis thaliana with 45 samples.

Results

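The transcripts described here were those abundant in dry seeds and nearly gone after 6 h of imbibition in water. CPM is a locus's count divided by the library total and multiplied by 1000000. A locus was taken if it averaged at least 5 CPM in the dry seeds of every genotype and if its mean after 6 h in water was under 12.5% of the dry mean in every genotype. These measured values chose the members, so the drop in water is given as a description, with no test. Only 4 of the 27587 loci met both conditions: SKS13 (AT3G13400), VGD1 (AT2G47040), AT3G01270 and PGA4 (AT1G02790). They stood among 9366 loci that reached 5 CPM in each dry group.

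All libraries came from whole Arabidopsis thaliana seeds of the Col0 ecotype. The seeds carried the labels cyp (cyp79B2 cyp79B3), myb (myb28 myb29), qko (cyp79B2 cyp79B3 myb28 myb29) and WT, the first 3 being mutants in glucosinolate synthesis. They were imbibed for 6 h in 10 mM KNO3, in 8 µM KSCN or in water, or were left dry. Of the 16 groups 13 held 3 libraries, and cyp in KSCN, myb in KNO3 and dry myb held 2. The labels give no age, harvest or parent plant for the seed lots and do not say that replicates came from separate plants. Each p-value therefore sets a difference against the spread between these libraries, which may not be that between separate plants.

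Library totals ran from 18097331 to 22910834 counts, so that 1 count was worth 0.0436 to 0.0553 CPM. The counts of some targeted genes were at odds with the labels. CYP79B2 had 21 to 31 counts in dry libraries labelled cyp and 0 to 4 in those labelled qko, against 1 to 3 in dry WT libraries. CYP79B3 had 10 to 24 counts in dry cyp libraries and 3 to 6 in dry qko, against 0 to 2 in dry WT. In water CYP79B3 had 85 to 124 counts in cyp, 5 to 14 in myb and 13 to 24 in qko, against 3 to 5 in WT. MYB29 had 1 to 14 counts in each imbibed library labelled myb or qko, and 0 in all cyp, WT and dry libraries. MYB28 had 0 counts in all 45 libraries, so it checks no label. Every direction below is therefore that of the libraries so labelled. In whole seeds, fewer cells of a type and less RNA per cell cannot be told apart.

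Dry seeds hold stored messenger RNA made during seed development, and part of it is broken down early in imbibition while new transcripts appear. Pectin is a gel-forming polysaccharide of the plant cell wall. Pectin methylesterases remove its methyl groups, and pectate lyases and polygalacturonases then cut the chain. Many genes of these families are transcribed in mature pollen, where the tube wall grows by adding and remodelling pectin.

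Of the 4 loci, 3 encode pectin-acting proteins by their RefSeq annotation. VGD1 (VANGUARD1) is a pectin methylesterase needed for fast growth of pollen tubes through the style. AT3G01270 is annotated as a pectate lyase family protein, and PGA4 as an exopolygalacturonase. SKS13 (SKU5 similar 13) belongs to a family related to multicopper oxidases. A pollen stage is named in the RefSeq notes of SKS13 and VGD1. Over the 18066 loci with enough counts to be tested, pectin terms occurred in 0.6% of the annotated loci and pollen terms in 4.6%. None of the 4 genes overlapped another annotated gene.

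Because the 4 transcripts moved together, the DNA just before their start sites is shown. Each sequence is the 200 bases before the RefSeq start of the counted transcript in TAIR10.1, on the gene's own strand, and it ends at the base before the start. Capitals mark AGAAA or its reverse complement TTTCT, a short motif described for pollen promoters. The VGD1 window is from chromosome 2, that of AT3G01270 from chromosome 3 and that of PGA4 from chromosome 1, all on the minus strand.
VGD1: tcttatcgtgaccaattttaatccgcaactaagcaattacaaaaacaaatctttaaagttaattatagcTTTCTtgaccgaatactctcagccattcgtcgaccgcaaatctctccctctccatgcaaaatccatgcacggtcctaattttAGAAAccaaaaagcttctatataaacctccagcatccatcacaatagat
AT3G01270: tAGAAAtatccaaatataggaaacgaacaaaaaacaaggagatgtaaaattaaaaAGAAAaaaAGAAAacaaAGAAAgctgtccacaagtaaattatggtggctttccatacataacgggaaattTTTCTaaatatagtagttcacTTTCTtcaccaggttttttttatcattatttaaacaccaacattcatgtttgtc
PGA4: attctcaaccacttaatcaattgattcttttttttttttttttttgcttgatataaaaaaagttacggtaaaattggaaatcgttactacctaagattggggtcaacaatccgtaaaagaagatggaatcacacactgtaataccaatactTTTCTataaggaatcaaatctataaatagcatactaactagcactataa
The window of SKS13, on the plus strand of chromosome 3, is not shown because 175 of its 200 bases lie in an exon of the gene's other transcript.

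The motif stood 6 times in the window of AT3G01270, 2 times each in those of SKS13 and VGD1, and 1 time in that of PGA4. It is short and common: 75.4% of all 27390 such windows held it. Of the other motifs searched on both strands, TTGAC (the W-box, 38.5% of all windows) was in the windows of VGD1 and PGA4. CATGCA (the RY motif, 6.7%) occurred 2 times in that of VGD1. ACGTG (the core of the abscisic acid response element, 20.2%) and GAANNTTC (the heat shock element, 7.7%) were in that of SKS13. The G-box CACGTG (5.8%) was in no window of the 4. Nor was CCGAC, the core of the drought response element (10.4%). The site II motif TGGGCC (12.8%) was absent from them, as was the telo-box ACCCTA (8.0%). A match describes letters and does not show a binding site.

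The counted transcripts were of ordinary size. SKS13 measured 1952 bases in 3 exons, VGD1 2258 bases in 2, AT3G01270 1920 bases in 4, and PGA4 1686 bases in 4. The median tested locus had 1689 bases and 5 exons. GC content was 47.5% in SKS13, 43.6% in VGD1, 42.8% in AT3G01270 and 41.0% in PGA4, beside a median of 41.6%. Per kilobase of transcript, the mean dry level over the 4 genotypes was 25.4 CPM for SKS13, 18.18 for PGA4, 16.5 for VGD1 and 16.2 for AT3G01270.

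Reads of VGD1 could be confused with those of its neighbour VGDH1, a homologous pectin methylesterase gene: 11.4% of the 31-base words in VGD1 also occur in other loci, 253 of them in VGDH1. The share was at most 0.2% in the other 3 genes. The split between VGD1 and VGDH1 is therefore uncertain.

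The first comparison asked how the stored level differed between genotypes in dry seeds. It was highest in the libraries labelled myb and qko for all 4 genes and lowest in WT. SKS13 stood at 33.0, 19.7 and 12.2 CPM in dry cyp libraries, at 80.1 and 94.1 in myb, at 34.01, 81.0 and 125.9 in qko, and at 7.10, 15.1 and 5.45 in WT. Every myb and qko library lay above every cyp and WT library, whereas cyp and WT overlapped, as did myb and qko. The share of all loci that separated in this way was not counted. Against WT, 38.0% of all loci tested were called in dry myb and 49.0% in dry qko.

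VGD1 stood at 21.8, 15.2 and 10.1 CPM in dry cyp libraries, at 69.8 and 64.6 in myb, at 30.98, 55.8 and 92.0 in qko, and at 6.03, 10.6 and 3.63 in WT. AT3G01270 stood at 20.4, 12.7 and 8.98 CPM in cyp, at 45.04 and 63.6 in myb, at 22.6, 49.98 and 77.9 in qko, and at 4.05, 9.66 and 3.45 in WT. PGA4 stood at 19.1, 12.7 and 8.49 CPM in cyp, at 51.7 and 60.1 in myb, at 23.605, 43.6 and 73.8 in qko, and at 5.57, 10.0 and 3.36 in WT. The order of groups and the pattern of overlap were those of SKS13 in each gene.

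The spread within cyp, qko and WT was wide and ran in parallel across the 4 genes. In qko, replicate 7 was the highest and replicate 4 the lowest for each gene, in cyp replicates 7 and 9, and in WT replicates 8 and 9. In myb, replicate 9 was the higher for SKS13, AT3G01270 and PGA4, and replicate 5 for VGD1. Between the lowest and the highest of the 11 dry libraries, CPM differed 23.1-fold for SKS13, 25.3-fold for VGD1, 22.6-fold for AT3G01270 and 22.0-fold for PGA4. Over the same libraries the count of VGD1 stayed between 0.660 and 0.911 times that of SKS13. The ratio to SKS13 was 0.562 to 0.737 for AT3G01270 and 0.538 to 0.785 for PGA4. The 4 genes thus kept near-constant proportions while their common level varied by over 20-fold. As a sum, they made up 39.7 to 94.1 CPM in cyp, 247 to 282 in myb, 111 to 369.6 in qko and 15.9 to 45.4 in WT.

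**Figure D1:**
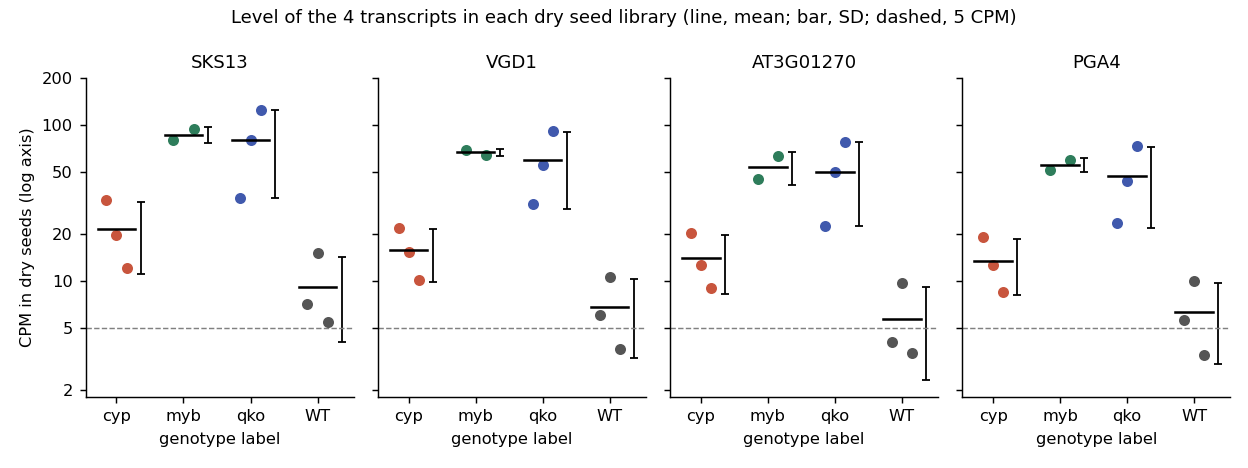
CPM (log axis) of SKS13, VGD1, AT3G01270 and PGA4 in each dry seed library labelled cyp (n = 3), myb (n = 2), qko (n = 3) and WT (n = 3), with the mean as a line, the SD as a bar and the 5 CPM minimum dashed. All myb and qko libraries lie above all cyp and WT libraries, and for 3 of the genes 1 or 2 WT libraries lie under 5 CPM.

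The mutants were tested against WT with edgeR's quasi-likelihood test in 1 model of all 45 libraries, with Benjamini-Hochberg adjustment over 18066 loci. The dry libraries had entered the choice of members through the 5 CPM minimum and the drop, neither of which uses a difference between genotypes. The minimum bore most on WT, the lowest dry group, so these tests are not independent of the choice. In dry myb seeds all 4 genes rose over WT, where 38.0% of all loci tested were called and 20.6% were called higher. SKS13 averaged 87.1 ± 9.89 CPM in myb (SD, n = 2) and 9.20 ± 5.14 CPM in WT (n = 3), a log2 fold change of 3.10 (SE 0.33, adjusted p = 1.89e-09). VGD1 averaged 67.2 ± 3.71 CPM in myb and 6.76 ± 3.55 CPM in WT, a log2 fold change of 3.18 (SE 0.34, adjusted p = 1.58e-08). The log2 fold change was 3.10 (adjusted p = 2.41e-07) for AT3G01270 and 3.0 (adjusted p = 1.3e-07) for PGA4.

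In dry qko seeds all 4 genes again rose over WT, where 49.0% of all loci tested were called and 25.4% were called higher. SKS13 averaged 80.3 ± 46.0 CPM in qko (SD, n = 3), a log2 fold change of 3.10 (SE 0.31, adjusted p = 2.48e-10). VGD1 averaged 59.6 ± 30.7 CPM in qko, a log2 fold change of 3.11 (SE 0.32, adjusted p = 3.72e-09). AT3G01270 averaged 50.2 ± 27.6 CPM and PGA4 47.0 ± 25.3 CPM in qko, with log2 fold changes of 3.10 and 2.87. The myb and qko comparisons share the WT libraries, so their likeness is not independent evidence.

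In dry cyp seeds the difference from WT was smaller and close to the threshold, with 29.4% of all loci called and 16.1% called higher. SKS13 averaged 21.6 ± 10.5 CPM in cyp (SD, n = 3), a log2 fold change of 0.85 (SE 0.30, adjusted p = 0.0336). VGD1 averaged 15.69 ± 5.86 CPM in cyp, a log2 fold change of 0.83 (SE 0.31, adjusted p = 0.0459). AT3G01270 averaged 14.0 ± 5.81 CPM in cyp and 5.72 ± 3.43 CPM in WT and missed the threshold (log2 fold change 0.91, SE 0.35, adjusted p = 0.0509). PGA4 averaged 13.4 ± 5.32 CPM in cyp and 6.32 ± 3.40 CPM in WT and missed it as well (log2 fold change 0.70, adjusted p = 0.108).

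The calls in cyp rested on single libraries and on the scaling. Without replicate 8 of dry WT, or without replicate 9 of dry cyp, all 4 genes were called. Without replicate 5 or 9 of dry WT, or without replicate 7 of dry cyp, none was, and without replicate 8 of dry cyp 1 was. DESeq2 called none of the 4 in cyp, and with libraries scaled by their totals 4 were called. That scaling put the median log2 fold change of all loci at 0.39, against 0.03 with trimmed-mean scaling. Relative to that median the 4 genes lay at 0.82 with totals and 0.81 with trimmed means. For myb the 2 scalings placed the median of all loci at 0.13 and 0.01, and the 4 genes 3.10 and 3.09 above it.

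The second comparison concerned what was left after 6 h. VGD1, AT3G01270 and PGA4 were at or near 0 in every imbibed library, whatever the genotype and the solution. Over the 34 imbibed libraries VGD1 had 11 counts in all, with at most 3 in a library and 0 in 25 libraries, against 8537 counts in the 11 dry libraries. AT3G01270 had 13 counts in imbibed libraries, at most 2 in one and 0 in 24, against 7145 in dry libraries. PGA4 had 8 counts, at most 1 in a library and 0 in 26, against 7000 in dry libraries.

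In KNO3, which did not enter the choice of members, all 4 genes averaged under 12.5% of their dry mean in each genotype. The share of loci past that bound, among those of at least 5 CPM in the dry seeds of the genotype, was 3.53% in cyp, 0.948% in myb, 0.773% in qko and 0.0499% in WT. In KSCN all 4 genes again lay under the bound in each genotype, where the share was 3.43% in cyp, 0.968% in myb, 0.684% in qko and 0.0399% in WT. In water, where the rule fixed the outcome, the share was 3.34% in cyp, 0.987% in myb, 0.723% in qko and 0.0499% in WT, and nothing is read from it. The dry libraries are the denominator in all 3 solutions, so the 3 sets of values are not independent. A bound of 12.5% was passed in water by 370 loci in cyp and by 5 in WT, so the bound was hardest to meet in WT.

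For VGD1 in KNO3 the level left was 0 of the dry mean in cyp and in WT, where 0 counts allow up to 0.282% and 0.660%. It was 0.0335% in myb, from 1 count (95% counting interval 0.000848 to 0.187%), and 0.0928% in qko, from 3 counts (0.0191 to 0.271%). In KSCN it was 0.142% in cyp, 0.0223% in myb, 0.0252% in qko and 0.219% in WT, each from 1 count. These intervals and limits cover counting error only, and the highest upper bound for VGD1 in any imbibed group was 1.22%. That bound was 1.87% for AT3G01270 and 1.32% for PGA4. Differences between genotypes or solutions within this range were not detectable at this depth.

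**Figure D2:**
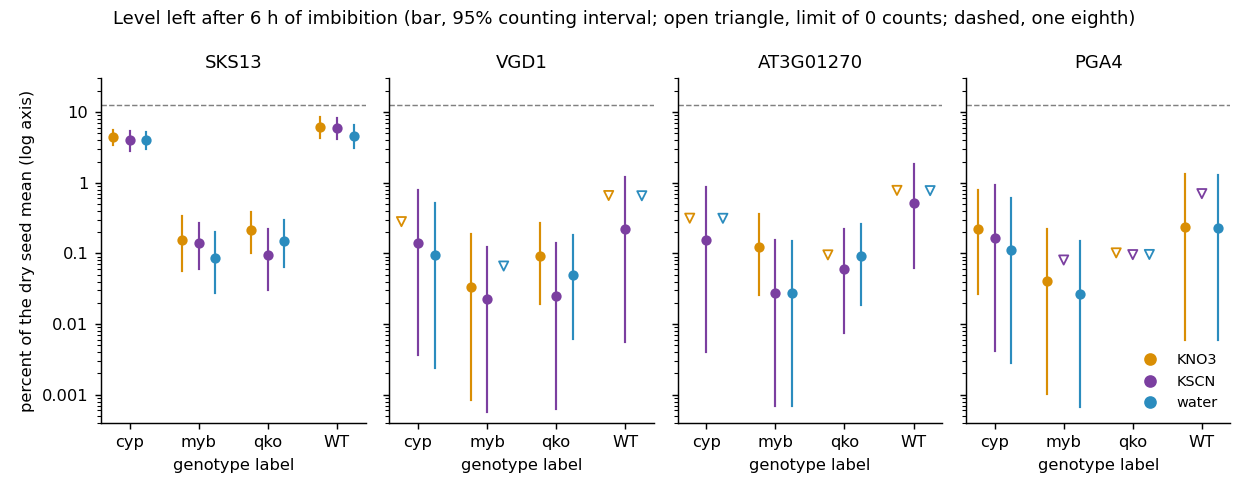
Level in KNO3, KSCN and water as a percent of the dry seed mean (log axis) for each gene, by genotype label, with 95% counting intervals and open triangles at the limit that 0 counts allow. VGD1, AT3G01270 and PGA4 lie under 1% of the dry level in every group, and SKS13 lies between 4.01% and 6.14% in cyp and WT and at or under 0.212% in myb and qko.

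SKS13 was the exception that kept counted transcripts. In KNO3 it had 18, 34 and 13 counts in cyp libraries, 3 and 3 in myb, 2, 2 and 6 in qko, and 13, 14 and 11 in WT. In KSCN it had 26 and 13 counts in cyp, 5, 1 and 2 in myb, 2, 1 and 2 in qko, and 14, 12 and 11 in WT. In water it had 20, 18 and 21 counts in cyp, 3, 1 and 1 in myb, 3, 2 and 3 in qko, and 8, 13 and 8 in WT. Imbibed cyp and WT libraries held 8 to 34 counts and imbibed myb and qko libraries 1 to 6, with no overlap. How many of all loci separated in this way was not counted.

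As a share of the dry mean, SKS13 was left at 4.44% in KNO3, 4.01% in KSCN and 4.01% in water in cyp. The share was 0.154%, 0.138% and 0.0853% in myb in the same 3 solutions, and 0.212%, 0.0939% and 0.151% in qko. In WT it was 6.14% in KNO3, 5.95% in KSCN and 4.64% in water, with 95% counting intervals of 4.35 to 8.43%, 4.19 to 8.20% and 3.11 to 6.67%. The order of the genotypes in imbibed seeds, cyp and WT above myb and qko, was thus not that of dry seeds. In imbibed seeds 80.8% of the SKS13 counts were assigned to its transcript AT3G13400.2, and in dry seeds 99.5%. Of the 34 imbibed libraries, 4 held more in AT3G13400.1, from few counts.

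No member passed the test for a change in KNO3 or KSCN relative to water. edgeR called 0 of the 4 genes in each of the 8 comparisons of KNO3 or KSCN with water, none had an unadjusted p under 0.05, and DESeq2 called 0. The background was as low: 0% of the 18066 loci were called in 7 of these comparisons and 1.98% in cyp in KNO3. In those 7, edgeR gave 173 to 2270 loci an unadjusted p under 0.05, and DESeq2 called 0 to 3. SKS13 averaged 0.566 ± 0.0737 CPM in WT in KNO3, 0.547 ± 0.0686 CPM in KSCN and 0.427 ± 0.125 CPM in water (SD, n = 3 each). Its log2 fold change over water in WT was 0.34 (SE 0.63) in KNO3 and 0.31 (SE 0.63) in KSCN, and changes of that size cannot be told from the spread at these counts. The water libraries had entered the choice of members, and the KNO3 and KSCN libraries had not. For VGD1, AT3G01270 and PGA4 every library in the 8 comparisons held 3 counts or fewer, and a difference at that level could not be called. The lack of calls therefore says nothing about small changes in these genes. The 6 tests of a difference in response between a mutant and WT called none of the 4 genes (lowest adjusted p = 0.943).

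Among imbibed seeds, the mutants were set against WT in KNO3 and in KSCN. Only SKS13 in qko in KSCN was called, and lower, where 52.6% of all loci were called and 25.6% were called lower. It averaged 0.0754 ± 0.0265 CPM in qko and 0.547 ± 0.0686 CPM in WT (SD, n = 3 each), with a log2 fold change of -1.91 (SE 0.77, adjusted p = 0.0356). The ratio of its summed counts, 5 against 37 and scaled to library totals, was 0.138 (exact 95% interval 0.0422 to 0.351, counting error only). The call was lost without any 1 of the 6 libraries (adjusted p 0.0503 to 0.0961).

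In the other comparisons of imbibed mutants with WT no member was called by edgeR. The share of loci called was 58.7% in cyp in KNO3, 26.7% in myb in KNO3, 49.5% in qko in KNO3, 58.5% in cyp in KSCN and 30.5% in myb in KSCN. At an unadjusted p under 0.05 there was 1 member, SKS13 in myb in KSCN. DESeq2 called SKS13, and no other member, in myb in KNO3, in qko in KNO3 and in myb in KSCN. The ratio of summed SKS13 counts was 0.238 in myb over WT in KNO3 (exact 95% interval 0.0821 to 0.567), 0.282 in qko in KNO3 (0.125 to 0.577) and 0.220 in myb in KSCN (0.0884 to 0.479). In cyp over WT the ratio, with library totals, was 1.69 in KNO3 (1.12 to 2.6) and 1.58 in KSCN (0.982 to 2.55). All these intervals cover counting error in summed counts only, not the spread between libraries. The edgeR test, which includes that spread, gave log2 fold changes of 0.38 (adjusted p = 0.578) and 0.24 (adjusted p = 0.764) in cyp with trimmed-mean scaling. With total-count scaling it gave 0.68 (adjusted p = 0.286) in KNO3 and 0.58 (adjusted p = 0.419) in KSCN. For VGD1, AT3G01270 and PGA4 no fold is given, because all libraries on either side held 3 counts or fewer.

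**Figure D3:**
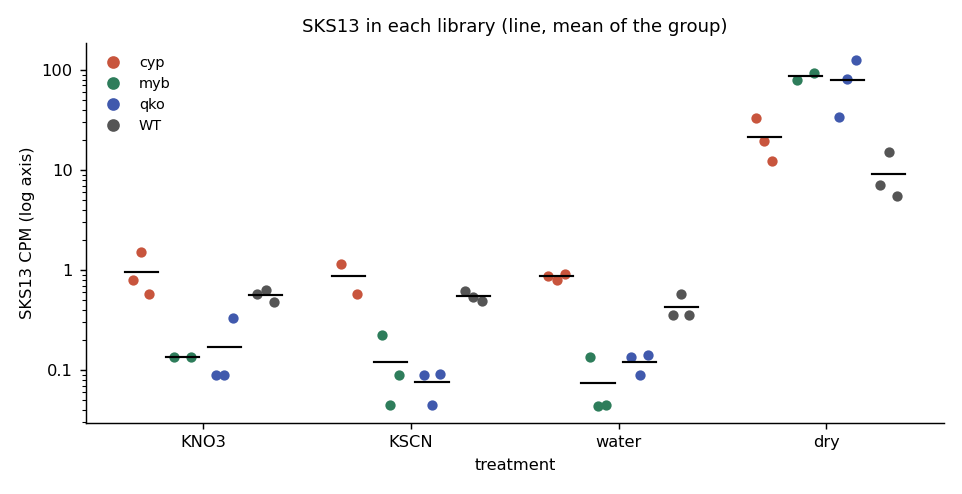
SKS13 CPM (log axis) in each library, in KNO3, KSCN, water and dry seeds, by genotype label, with the group mean as a line. In all 3 solutions the cyp and WT libraries lie above the myb and qko libraries, and in dry seeds below them.

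With library totals as the scale, no locus lay just under the bound of the rule. The largest share left in water, over the 4 genotypes, was 0.0906% for AT3G01270, 0.0943% for VGD1, 0.232% for PGA4 and 4.64% for SKS13. The next loci, just outside, were AT5G45880 at 14.95%, AT5G39520 at 15.2% and AT3G48510 at 17.37%. AT5G45880 encodes a protein of the Ole e 1 pollen allergen family and was the only 1 of these 3 on the list of pollen genes. The gap depends on the scale: with totals scaled by trimmed means (TMM) 26 loci met the same rule, the 4 genes among them. In dry seeds it stood at 7.04 CPM in cyp, 26.4 in myb, 24.1 in qko and 6.12 in WT.

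**Figure D4:**
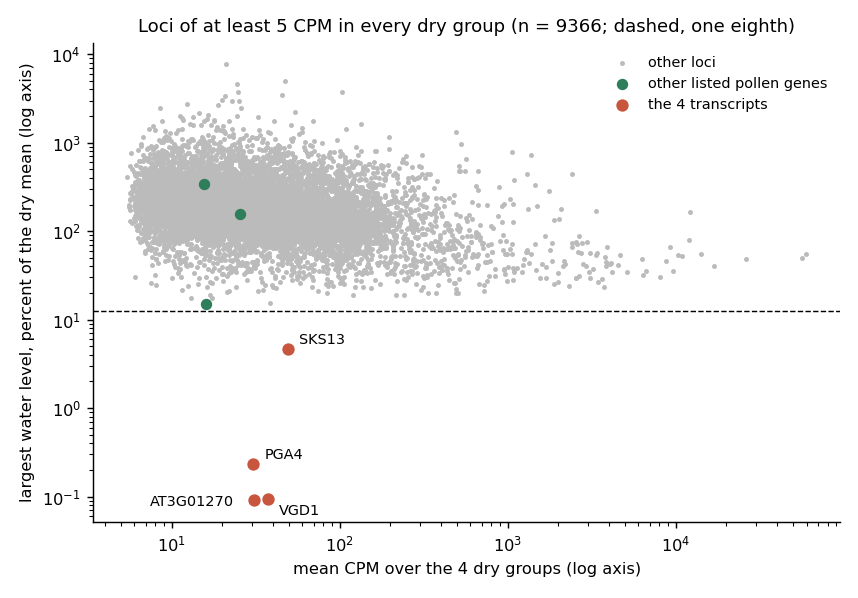
Mean CPM over the 4 dry groups (log axis) against the largest water level as a percent of the dry mean (log axis), for the 9366 loci of at least 5 CPM in every dry group, with 12.5% dashed, all scaled by library totals. The 4 transcripts lie at 4.64% or less, and the nearest other locus at 14.95%.

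At the other bound, the nearest loci outside 5 CPM were AT3G28750 at 4.69 CPM, AT3G07820 at 4.65 CPM and AT5G19580 at 4.603 CPM in WT. AT3G07820 encodes a pectin lyase-like protein with polygalacturonase activity by its annotation, and AT5G19580 a protein related to glyoxal oxidase. In myb these 3 stood at 0.208 CPM or less in water, against 46.8, 47.4 and 48.7 CPM in dry seeds. Membership therefore turned on the WT libraries: without replicate 8 of dry WT SKS13 alone met the rule, and without replicate 5 or 9 these 3 loci joined the 4 genes.

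With the minimum lowered to 2 CPM, 21 further loci met the rule. Their names carried the same 2 themes: 8 of the 21 had pectin terms in their annotation (38.1%, against 0.6% of annotated loci tested) and 18 had pollen terms (85.7%, against 4.6%). They were chosen on their values, so these shares are a description. Among them were the pectin methylesterase genes VGDH1, VGDH2 and AT2G47050, the multicopper oxidase-like gene sks14, and BCP1, which acts in the tapetum and microspore. VGDH1 stood at 9.24 CPM in cyp, 38.4 in myb, 32.2 in qko and 4.15 in WT, all in dry seeds. BCP1 stood at 4.55 CPM in cyp, 17.65 in myb, 17.9 in qko and 2.22 in WT. In all 21 loci the dry mean was higher in myb and in qko than in cyp, and higher in cyp than in WT. The share of all loci with this dry order was not counted. The choice required a lowest dry mean under 5 CPM, which in all 21 was that of WT. All 21 also lay under 12.5% of their dry mean in KNO3 and KSCN in each genotype. How many of all loci did so in every genotype was not counted either.

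On the chromosome, VGD1 lies between VGDH1 and AT2G47050, which both belong to those 21 loci. Beside SKS13 lies sks11, another member of its family, which stood at 0.046 CPM or less in water in myb, qko and WT, against 10.2 CPM in myb, 5.75 in qko and 1.49 in WT in dry seeds. The other neighbour of SKS13, AT3G13404, did not share this pattern, at 2.02 CPM in WT in water and 0.075 CPM in dry WT seeds. Nor did the neighbours of AT3G01270 and PGA4. VDAC1, beside AT3G01270, stood at 217 CPM in myb in water and 94.2 CPM in dry myb seeds.

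To place the 4 genes among known functions, 17 lists of genes were counted. VGD1 was on the list of mature pollen and pollen tube genes, and the other 16 lists held no member. Among 29 of the 39 listed late embryogenesis abundant genes that reached 5 CPM in each dry group, none lay under 25% of its dry mean in water in every genotype. None of 26 abscisic acid and maturation regulators did, nor of 18 circadian clock genes or 7 jasmonate genes. Over all 9366 loci of at least 5 CPM in each dry group, 45 did. Such absences are therefore not particular to these lists. The lists with a locus under 25% were those of pollen (2 of 4, VGD1 and AT5G45880), heat shock (1 of 23, HSFA9), drought and raffinose (1 of 5, GolS2), storage proteins (1 of 23, AT2G18540), and senescence and chlorophyll breakdown (3 of 6).

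In dry seeds the pollen list moved with the 4 genes in myb and qko, and few of its genes were called in cyp. Leaving out VGD1, it held 46 genes, of which 37 were tested. In myb 32 of them were higher than WT and 1 lower (PPME1), with a median log2 fold change of 2.50, beside 20.6% higher and a median of 0.01 over all loci tested. In qko 33 were higher and 1 lower (PPME1), with a median of 2.17, beside 25.4% and 0.00. In cyp 2 were higher (PRF4 and CSLD1) and 1 lower (TUA1), with a median of 0.44, beside 16.1% and 0.03. The count of 2 in cyp was 11 with total-count scaling, 8 without replicate 8 of dry WT, 3 without its replicate 5 or without replicate 9 of dry cyp, and 1 without replicate 9 of dry WT or replicate 7 of dry cyp. PRF4 encodes a pollen profilin, CSLD1 a cellulose synthase-like protein of pollen tubes, and TUA1 an alpha-tubulin.

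Some of these genes were also at or near 0 after imbibition. The signalling peptide gene RALFL19 had 0 counts in imbibed cyp, myb and qko libraries, and stood at 1.27 CPM in cyp, 5.52 in myb, 5.20 in qko and 0.452 in WT in dry seeds. The hexose transporter gene STP11 averaged 0.0110 CPM or less in the imbibed seeds of each genotype, against 1.79 CPM in cyp, 9.19 in myb, 6.19 in qko and 0.995 in WT in dry seeds. Other listed genes were not confined to dry seeds. MYB101, a transcription factor of pollen tubes, averaged 38.9 CPM in cyp, 50.6 in myb, 48.0 in qko and 20.1 in WT in imbibed seeds, against 10.3, 22.0, 22.3 and 8.11 CPM in dry seeds of the same genotypes.

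**Figure D5:**
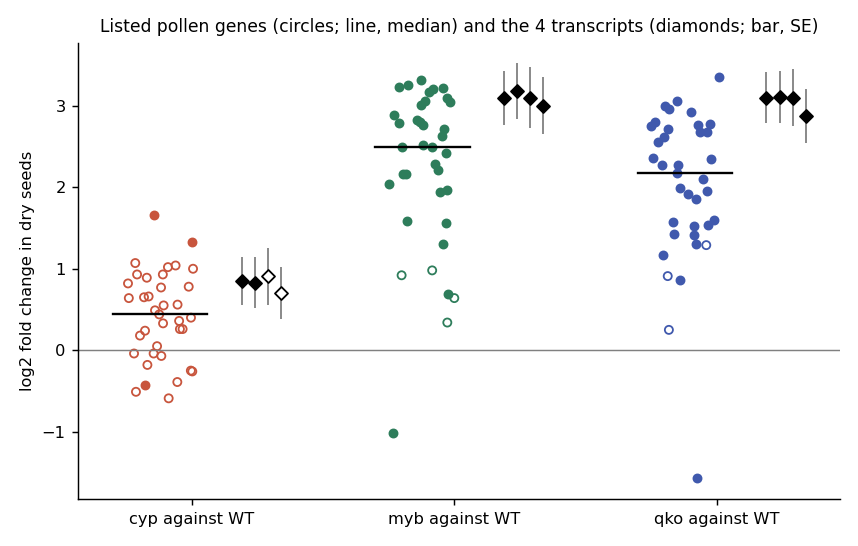
Log2 fold change against WT in dry seeds labelled cyp, myb and qko, for the 37 tested pollen genes other than VGD1 (circles, filled where adjusted p is under 0.05, with the median as a line) and for SKS13, VGD1, AT3G01270 and PGA4 in that order (diamonds, filled where called, with SE bars). In myb and qko most circles lie above 1 and the 4 diamonds between 2.87 and 3.18, and in cyp the diamonds lie between 0.70 and 0.91.

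The summed level of the 46 pollen genes in imbibed libraries was 72.4 to 95.8 CPM in cyp, 93.8 to 112 in myb, 94.3 to 116 in qko and 59.2 to 67.0 in WT. In dry libraries it was 72.5 to 124 CPM in cyp, 283 to 295 in myb, 152 to 348 in qko and 54.1 to 79.3 in WT. TUA1 and MYB101 held most of the imbibed sum, so it does not describe the list as a whole. In imbibed seeds TUA1 averaged 25.7 CPM in cyp, 35.3 in myb, 35.5 in qko and 27.3 in WT. MYB101 averaged 38.9 CPM in cyp, 50.6 in myb, 48.0 in qko and 20.1 in WT. Of the 46 genes, 42 had a count in dry cyp seeds, 42 in myb, 44 in qko and 41 in WT. MLO9 was at 0 in all libraries, and PME5 was at 0 in dry myb, qko and WT seeds. The summed level of the 14 tapetum genes in dry seeds was 33.6 to 41.7 CPM in cyp and 27.5 to 30.5 in myb. It was 19.4 to 22.5 CPM in qko and 24.2 to 27.8 in WT. Only 6 of the 14 genes had a count in dry cyp seeds, 4 in myb, 6 in qko and 7 in WT. Just 2 reached 5 CPM in each dry group. The tapetum sum thus rests on few genes and cannot show whether the list as a whole moved. Of the 14 genes, AT5G07230, A7 and LTP12 were at 0 in every library. Whether pollen or anther material in the seed lots had a part in the levels of the 4 genes was not tested.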

How the data were processed

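The authors deposited 1 table of expected counts per transcript, which they made with Salmon per the submitters' processing notes. Which Salmon release, index or genome build was used is not stated in those sources. Libraries were paired-end reads of 100 bases, per the labels' protocols. Counts of 48268 transcripts were summed to 27587 loci, of which 27392 had a RefSeq name, and rounded for the tests. Groups follow the labels.

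The deposited counts were analysed with edgeR 4.0.16 in R 4.3.3: 1 quasi-likelihood model of 45 libraries and 16 groups, trimmed-mean (TMM) scaling, low counts removed (minimum count 10, minimum total 15), which left 18066 loci. A gene was called where its adjusted p was under 0.05. The edgeR step was tested on simulated data for 1 comparison, dry qko against WT. The alternatives used DESeq2 1.42.0 among other settings given in the closing part. Sums and intervals were computed in Python 3.11.15 with pandas 2.3.3 and SciPy 1.17.1. CPM uses library totals. Intervals are exact (Poisson or Clopper-Pearson, 95%) on summed counts, so they leave out the spread between libraries. The limit of 0 counts is 3 counts over the group. Promoters, lengths and annotation terms are from RefSeq TAIR10.1, which may not be the authors' build, so no coordinates are given.

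The members and the 17 gene lists were chosen with earlier results of these data known. The rule for named genes covers all members, the list members, and 3 loci just outside each bound. VGDH1, VGDH2, AT2G47050, sks11, sks14, BCP1, RALFL19, STP11, MYB101 and the loci of the closing part were chosen after their values were seen. Replicate numbers 4, 6 and 7 were shared by the qko groups (correlations of residuals 0.338 to 0.562 between KNO3 and water, 0.371 to 0.625 between KSCN and water). The labels do not say that a shared number pairs libraries. The replicate block left 0 members called in these qko comparisons.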

Additional observations from a re-analysis of the deposited data

Results flagged for a closer look

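SKS13 stood out because the libraries of a mutant and of WT were ordered one way in dry seeds and the other way after imbibition, with no overlap either time. In KNO3 its log2 fold change over WT was -1.59 in myb and -1.37 in qko. In KSCN it was -1.62 in myb and -1.91 in qko. In dry seeds it was 3.10 in both. The difference between dry and imbibed seeds was not tested, and the imbibed values rest on 1 to 6 counts per library in myb and qko. How many of all loci changed order without overlap was not counted.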

How the results depend on the processing

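Number of loci under the rule. The 4 members became 45 loci with a bound of 25%, 25 with a minimum of 2 CPM, 0 with 10 CPM and 26 with TMM-scaled totals, and stayed 4 with a bound of 6.25%. Leaving out 1 dry or water library gave 1 to 7 loci. All 32 combinations of member and KNO3 or KSCN group stayed under 12.5% with TMM-scaled totals and without any 1 library.

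In dry seeds the 4 calls each in myb and qko held under every alternative (log2 fold changes 2.40 to 3.69 without 1 library). In cyp the 2 calls became 4 with total-count scaling, 0 with DESeq2, 0 with the replicate block and 0 to 4 without 1 library. In KNO3 and KSCN, SKS13 was called against WT, as 1 member each, in myb in KNO3, qko in KNO3 and myb in KSCN with DESeq2 and with the replicate block. For qko in KSCN, the 1 call became 0 without any 1 library. The small SKS13 difference between cyp and WT, 0.38 in KNO3 and 0.24 in KSCN (up to 0.6 in either without 1 library), turned to -0.05 in KNO3 with the replicate block, to -0.04 without replicate 7 of cyp in KNO3, and to -0.25 without replicate 6 of cyp in KSCN. Apart from qko, the groups compared shared at most 2 replicate numbers (correlations of residuals -0.431 to 0.496). The correlation for replicate 8 of cyp was 0.496 between KNO3 and water and 0.442 between KSCN and water. Whether shared numbers pair the libraries is therefore unclear. The block changed no other call of a member.

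Pollen genes other than VGD1 called higher in dry cyp were 2, and 11 with total-count scaling and 1 to 8 without 1 library. Without 1 library the range was 28 to 31 in myb and 28 to 33 in qko. These alternatives for the list were chosen after seeing the data. Where leaving out a library left a group with 1, that library is assumed to vary like the other groups. The 6 tests of a difference in response were run in 1 setting. At 0 to 3 counts per library, differences among imbibed groups are beyond the depth.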

Other observations

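A further class of stored transcripts lay between 12.5% and 25% of the dry mean in water. It held 41 loci, with a median of 82.7 CPM in dry WT seeds, against 2.28 CPM in WT for the 21 loci of 2 to 5 CPM. It contained 3 of the 6 senescence and chlorophyll breakdown genes that reached 5 CPM in each dry group: NYE1, which removes magnesium from chlorophyll, NYC1, a chlorophyll b reductase, and AT4G11910, a close relative of NYE1. In water NYE1 was left at 3.90% of its dry mean in cyp, 16.6% in myb, 17.38% in qko and 20.1% in WT. That dry mean was 693 CPM in cyp, 401 in myb, 389.7 in qko and 483 in WT. NYC1 was left at 8.33% in cyp, 17.775% in myb, 19.8% in qko and 21.8% in WT.

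Single genes of other functions were in the same class, while most genes of their lists were not. The counts were 1 of 5 for drought and raffinose, 1 of 23 for heat shock and 0 of 29 for late embryogenesis abundant proteins. Over all 9366 loci of at least 5 CPM in each dry group the class held 41, so low counts are not particular to these lists. GolS2, a galactinol synthase, was left at 1.46% in cyp, 14.9% in myb, 18.1% in qko and 19.9% in WT. MIPS2, which makes the inositol precursor, was left at 2.20% in cyp, 14.999% in myb, 16.2% in qko and 20.8% in WT. HSFA9, a heat shock factor of maturing seeds, was left at 1.29% in cyp, 11.2% in myb, 16.1% in qko and 18.9% in WT. In these 5 loci the share left was lowest in the libraries labelled cyp, as in most of the 41 loci. AT5G45880 was an exception, with 1.88% left in cyp and 1.63% in myb. Low shares were also most frequent in cyp over all loci of at least 5 CPM in a genotype's dry seeds. There 3.34% lay under 12.5% in water in cyp, 0.987% in myb, 0.723% in qko and 0.0499% in WT. Of the 41 loci, 0 had pectin terms in their annotation, 3 had pollen terms, and 4 shared the dry order of the 4 transcripts (myb and qko over cyp, cyp over WT). Under the same bound of 25%, 27 of the 41 stayed below it in KNO3 and KSCN in every genotype. The class was chosen on these values and carries no test.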
